A study of Mus musculus with 8 samples.

Results

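A set of 10 genes of the fat cell programme was followed in muscle stem cells that overexpressed the homeobox factor Hoxa9. They comprise the transcription factors Cebpb, Cebpd, Cebpa and Pparg, the fatty acid handling genes Fabp4, Cd36, Lpl and Acsl1, the lipid droplet coat gene Plin2 and the hormone gene Adipoq. They were taken by gene name from the non-control probes of the array, and make up 10 of its 34947 gene names. The cells were satellite cells, the stem cells that repair skeletal muscle, taken from the hindlimbs of C57BL/6J mice that were 3 to 4 months old. The Hoxa9-eGFP group was transduced with a lentivirus that inserted Hoxa9 with eGFP into the genome, and the eGFP group with a lentivirus that inserted eGFP alone. Both groups were thus sorted, grown overnight, infected, made to express eGFP and sorted again for eGFP at 5 days. Each group has 4 single-colour Agilent arrays, numbered 1 to 4 by experiment. Whether the 4 samples of a group stem from different animals is not stated in the labels. The p-values therefore describe the spread among these samples, which may be technical, and precision is limited by the number of arrays. The comparison asks which transcripts differ when Hoxa9 is overexpressed.

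Fat cell formation is commonly described as a cascade. C/EBPβ and C/EBPδ act early, C/EBPα and the nuclear receptor PPARγ follow and sustain each other, and PPARγ and C/EBPα then switch on genes that take up, carry, activate and store fatty acids. In muscle the classical source of fat cells is the fibro-adipogenic progenitor and not the satellite cell, and several of the lipid genes also serve fatty acid use in muscle fibres. Fabp4 and Cd36 are also expressed by capillary endothelial cells and macrophages.

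Each value rests on the DNA probe that reads the transcript, so the probe sequences define what was measured. They come from the deposited scanner files, with mm9 as the build given there for probe positions. Their place in exons was not looked up, for want of an mm9 annotation. The first 30 bases of a probe are shown for 9 probes and the whole probe of 60 bases for the other 3.
Cebpb, chr2:167515828-167515857, plus strand: agaggcgtatgtatattttgagaacctttt
Cebpd, chr16:15888459-15888488, plus strand: gacatttccgacagacttttgtagataaga
Cebpa, chr7:35906517-35906546, plus strand: ttttgttttggttttgctctgattcttgcc
Pparg, chr6:115440213-115440242, plus strand: gcaggaaagtcccacccgctgacaacgtgt
Fabp4, chr3:10204482-10204511, minus strand: aagaggcctggatggaaatttgcatcaaac
Cd36, chr5:17288630-17288659, minus strand: aagaatgaaaaatgaacaattcacatgtga
Lpl, brighter probe, chr8:71430267-71430296, plus strand: gaacaccaacccacatgcaaaaccccacaa
Lpl, other probe, chr8:71425050-71425109, plus strand: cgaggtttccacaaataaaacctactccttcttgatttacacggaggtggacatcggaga
Acsl1, brighter probe, chr8:47621232-47621261, plus strand: gcctaacttcatactcgtattcttaattgc
Acsl1, other probe, chr8:47619774-47619833, plus strand: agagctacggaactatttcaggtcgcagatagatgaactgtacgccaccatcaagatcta
Plin2, chr4:86302877-86302906, minus strand: ctggccagatgaccccttttgctgtattga
Adipoq, chr16:23157576-23157635, plus strand: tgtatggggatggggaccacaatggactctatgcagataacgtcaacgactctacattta
The Pparg probe carries both RefSeq transcripts of the gene in the files, so its protein forms cannot be told apart here. Acsl1 and Lpl have 2 probes each, the other genes 1, and Pparg's probe is spotted 10 times on each array.

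Levels below are log2 signals relative to each array's 75th percentile (0), so a level compares arrays for the same probe and not different genes. A gene was called when its adjusted p was under 0.05 in a limma fit across all genes, two-sided with Benjamini-Hochberg adjustment. Between 69.6% and 77.5% of non-control spots were well above background on the arrays, and no spot was saturated. The fit covered 27109 genes and called 15.2% of them, with 2123 (7.83%) higher and 2011 (7.42%) lower with Hoxa9, at a median difference of -0.07. Hoxa9 itself read 5.31, 5.44, 5.48 and 5.81 in the Hoxa9-eGFP arrays and -0.98, -0.71, -0.14 and -0.04 in the eGFP arrays. The difference was 5.98 (SE 0.24, adjusted p = 1.71e-05, limma), or 2.12 when its kept probes were averaged. The satellite cell and myoblast markers were all present: 12 of 12 were measured, well above background on all arrays, with 7 lower and 0 higher in the Hoxa9-eGFP arrays.

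Of the 10 genes, 5 rose with Hoxa9, namely Fabp4, Cebpa, Cebpd, Acsl1 and Cd36, and 0 fell. The background shares of all genes were 7.83% higher, 7.42% lower and 15.2% called in either direction. In 6 genes, these 5 and Cebpb, every Hoxa9-eGFP array lay above every eGFP array, against 11.1% of all genes. The median difference of the 10 was 1.02, beside -0.07 over all genes. Among the regulators Cebpd and Cebpa rose, Cebpb missed the threshold and Pparg was not called, nor were Lpl, Plin2 and Adipoq. Cd36 passed the filter on dim probes only through the Hoxa9-eGFP arrays, so that its groups had to differ. The 10 genes had been chosen with earlier results of these arrays known. In a bulk sample, fewer cells of a type and less RNA per cell cannot be told apart, nor can more cells and more RNA per cell.

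**Figure D1:**
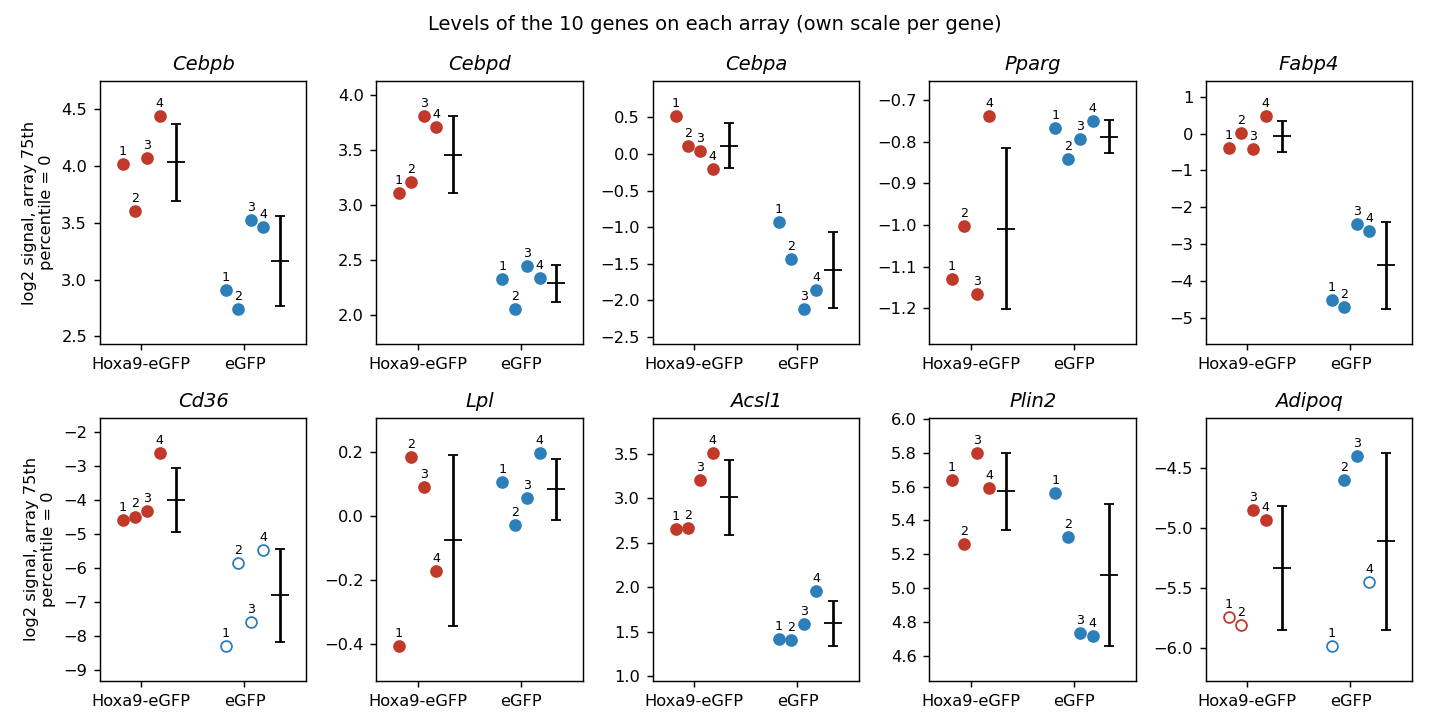
Level of each of the 10 genes on every array, as log2 signal relative to the array's 75th percentile, with a scale of its own for each gene. Points are arrays numbered by experiment, open points are not well above background, and bars give mean and SD (n = 4). The groups are fully separate for Cebpb, Cebpd, Cebpa, Fabp4, Cd36 and Acsl1.

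Cebpb encodes C/EBPβ, which starts the cascade and also acts in muscle repair and inflammation. It read 4.01, 3.61, 4.07 and 4.44 in the Hoxa9-eGFP arrays, against 2.91, 2.74, 3.53 and 3.47 in the eGFP arrays. The groups did not overlap, but the lowest Hoxa9-eGFP array stood only 0.08 above the highest eGFP array. The log2 difference was 0.87 (SE 0.25, 95% interval 0.30 to 1.44), which just missed the threshold (adjusted p = 0.0504, limma). With the experiment number as a block, which pairs the arrays, the adjusted p was 0.0202 and Cebpb was called. It was also called without Hoxa9-eGFP array 2 (difference 1.01, adjusted p = 0.0319). With the slide as a block, the difference was 0.85 and the adjusted p 0.125. Within the 3 slides Cebpb was higher by 1.62, 0.28 and 0.60.

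Cebpd encodes C/EBPδ, the partner of C/EBPβ at the start of the cascade. It read 3.11, 3.21, 3.81 and 3.71 in the Hoxa9-eGFP arrays, against 2.32, 2.05, 2.44 and 2.33 in the eGFP arrays. All Hoxa9-eGFP arrays were higher, with 3 and 4 above 1 and 2, while the eGFP arrays lay close together. Cebpd rose 2.25-fold (log2 difference 1.17, SE 0.20, adjusted p = 0.00552, limma). It was higher within each slide, by 1.52, 0.71 and 1.48.

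Cebpa encodes C/EBPα, which acts later and is needed for full fat cell maturation. It read 0.52, 0.10, 0.04 and -0.21 in the Hoxa9-eGFP arrays, against -0.93, -1.44, -2.12 and -1.86 in the eGFP arrays. The lowest Hoxa9-eGFP array stood 0.72 above the highest eGFP array. Cebpa averaged 0.11 ± 0.30 in the Hoxa9-eGFP arrays and -1.59 ± 0.52 in the eGFP arrays (SD, n = 4 each), a 3.25-fold rise (log2 difference 1.70, SE 0.28, adjusted p = 0.00464, limma). It was higher in all 4 same-numbered pairs, by 1.45 to 2.16, and within the 3 slides by 0.97, 2.43 and 1.90.

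Pparg encodes the nuclear receptor at the centre of the fat cell programme, which C/EBP factors are known to induce. It read -1.13, -1.002, -1.17 and -0.74 in the Hoxa9-eGFP arrays, against -0.77, -0.84, -0.79 and -0.75 in the eGFP arrays. The Hoxa9-eGFP arrays 1 to 3 were below the eGFP range and array 4 was just above it. The log2 difference was -0.22 (SE 0.14, 95% interval -0.54 to 0.10, adjusted p = 0.358, limma), so a rise above 0.10 lies outside the interval. The probe was well above background on all 8 arrays. Its 10 repeated spots had a coefficient of variation of 3.42% to 22.9% within the Hoxa9-eGFP arrays and 3.62% to 20.2% within the eGFP arrays. The repeats show the precision of the spots on an array and are not further samples. Within slides the differences were 0.07, -0.27 and -0.42. Over the 20 alternative settings Pparg stayed between -0.31 and -0.14 and was called in none.

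**Figure D2:**
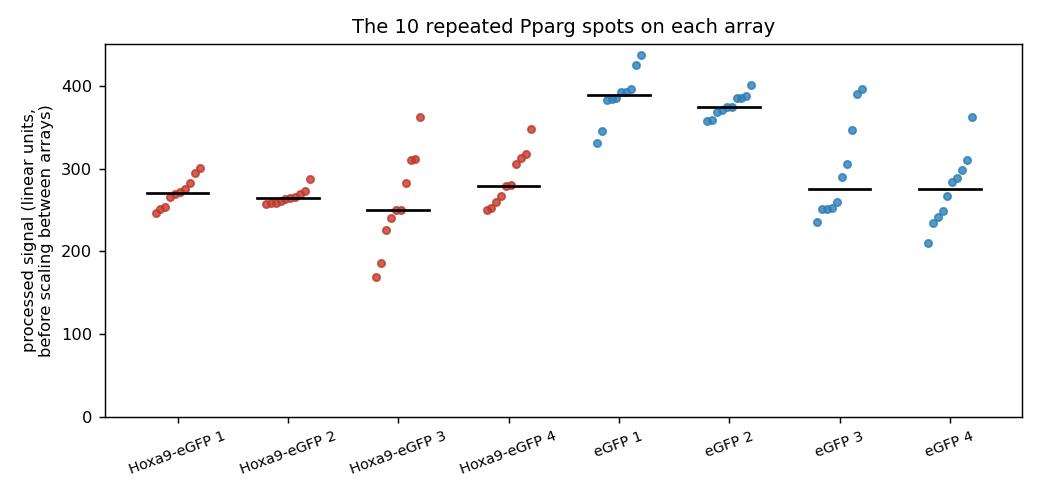
Processed signal of the 10 repeated Pparg spots on each array, in linear units before scaling between arrays, with a line at the median. The medians run between 250 and 279 units in the Hoxa9-eGFP arrays and between 275 and 389 units in the eGFP arrays, and the spots scatter most on arrays 3 and 4.

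Fabp4, which encodes the fatty acid carrier of fat cells and a classical PPARγ target, had the widest measured separation between the groups. It read -0.38, 0.02, -0.41 and 0.48 in the Hoxa9-eGFP arrays, against -4.51, -4.69, -2.46 and -2.63 in the eGFP arrays. Every array was well above background. Fabp4 averaged -0.07 ± 0.42 in the Hoxa9-eGFP arrays and -3.57 ± 1.19 in the eGFP arrays (SD, n = 4 each), an 11.3-fold rise (log2 difference 3.50, SE 0.55, 95% interval 2.24 to 4.76, adjusted p = 0.00361, limma). The eGFP arrays fell into a low pair, 1 and 2, and a higher pair, 3 and 4, a spread of 2.23 that the Hoxa9-eGFP arrays, with a spread of 0.89, did not share. The rise was therefore uneven, from 2.05 to 4.71 over the same-numbered pairs, and 5.08, 2.28 and 2.22 within the slides. With the slide as a block it was 3.28 (adjusted p = 0.0169). Over the 20 alternative settings the log2 difference of Fabp4 ran between 2.47 and 3.87, so its fold is less certain than its direction.

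The genes whose levels over the 8 arrays followed Fabp4 most closely were Cpeb3, which encodes an RNA-binding regulator of translation (Pearson r 0.998), Rtl5, a gene derived from a retrotransposon (0.996), and A230009B12Rik (0.995). Each was also higher in the Hoxa9-eGFP arrays, which follows largely from choosing them by likeness to Fabp4 over all 8 arrays. The likeness covers both the step between the groups and the split among the eGFP arrays. Cpeb3 rose by 1.63 (SE 0.26, adjusted p = 0.00409, limma) and Rtl5 by 1.85 (SE 0.26, adjusted p = 0.00227), or by 0.89 after normexp correction. A230009B12Rik was dim on all 4 eGFP arrays, none of them well above background, and its log2 difference was 1.97 (adjusted p = 0.00481, limma). With each eGFP array given its lowest signal well above background the rise was 2.56-fold, which is not a strict minimum and was not tested. A230009B12Rik passed the filter on dim probes only through the Hoxa9-eGFP arrays, so that its groups had to differ. After normexp background correction the difference shrank to 0.30 and it was not called (adjusted p = 0.272). These are descriptions over 8 arrays that share their groups and slides.

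Cd36 encodes a fatty acid translocase of the cell surface, found in fat, muscle and capillary endothelium. It was well above background on all 4 Hoxa9-eGFP arrays, at -4.59, -4.49, -4.34 and -2.61, and on 0 of 4 eGFP arrays, where the measured signals were -8.30, -5.87, -7.60 and -5.47. Hoxa9-eGFP array 4 stood far above the other 3, and the groups did not overlap. It thus passed the filter, which asked for 4 of 8 arrays, only through the Hoxa9-eGFP group, where it is high. The log2 difference of 2.80 (adjusted p = 0.0318, limma) rests on eGFP signals not well above background, so its size is uncertain. A more cautious estimate was a 4.26-fold rise, which the adjusted p does not test. For that estimate each eGFP array was given the lowest signal seen there in any probe well above background, or the Cd36 signal where that was higher. It is not a strict minimum, since Cd36 lay above that lowest signal on eGFP arrays 2 and 4 without being well above background. Of the 5 calls, that of Cd36 alone was lost under alternatives without a minimum fold. It was lost when any of Hoxa9-eGFP arrays 1, 3 and 4 or eGFP arrays 1 and 3 was left out (adjusted p = 0.0543 to 0.086), with the slide as a block (adjusted p = 0.0519) and with normexp background correction, where the difference shrank to 0.61 (adjusted p = 0.136). As the groups did not overlap, the direction had to hold within all 3 slides.

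Lpl encodes lipoprotein lipase, which frees fatty acids from circulating triglyceride. The brighter probe read -0.41, 0.19, 0.09 and -0.17 in the Hoxa9-eGFP arrays, against 0.11, -0.03, 0.06 and 0.20 in the eGFP arrays. The groups overlapped, with a log2 difference of -0.16 (SE 0.17, 95% interval -0.54 to 0.22, adjusted p = 0.558, limma). The other Lpl probe differed by -0.29 (SE 0.21, adjusted p = 0.425 over all probes). Neither probe was called, and an increase above 0.22 lies outside the interval of the brighter probe.

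Acsl1 encodes the long-chain acyl-CoA synthetase that activates fatty acids for storage or oxidation. The brighter probe read 2.65, 2.67, 3.21 and 3.51 in the Hoxa9-eGFP arrays, against 1.42, 1.40, 1.59 and 1.95 in the eGFP arrays. Acsl1 rose 2.68-fold (log2 difference 1.42, SE 0.24, adjusted p = 0.00505, limma) and was higher within the 3 slides by 2.10, 1.07 and 1.26. The second probe gave the same direction. It read -1.04, -1.21, 0.00 and 0.06 in the Hoxa9-eGFP arrays, against -1.72, -1.83, -1.55 and -1.72 in the eGFP arrays (difference 1.16, SE 0.31, adjusted p = 0.0442 over all probes). On both probes Hoxa9-eGFP arrays 3 and 4 were above 1 and 2, and the groups were separate.

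Plin2 encodes perilipin 2, the coat protein of small lipid droplets in many cell types. It read 5.64, 5.26, 5.80 and 5.59 in the Hoxa9-eGFP arrays, against 5.56, 5.30, 4.74 and 4.71 in the eGFP arrays. In experiments 1 and 2 the groups were level and in 3 and 4 the Hoxa9-eGFP arrays were higher, so that the ranges overlapped. The difference of 0.50 (SE 0.23, 95% interval -0.04 to 1.03) did not pass the threshold (adjusted p = 0.214, limma). Within slides it was 0.16, 0.71 and 1.09.

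Adipoq encodes adiponectin, a hormone secreted by mature fat cells. It was well above background on 2 of 4 arrays in each group, at -4.85 and -4.93 on Hoxa9-eGFP arrays 3 and 4 and at -4.60 and -4.40 on eGFP arrays 2 and 3. The other arrays, not well above background, read -5.74 and -5.81 in the Hoxa9-eGFP group and -5.98 and -5.45 in the eGFP group. The difference of -0.22 (SE 0.40, 95% interval -1.14 to 0.69, adjusted p = 0.742, limma) had no stable sign and turned to 0.013 without eGFP array 3.

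**Figure D3:**
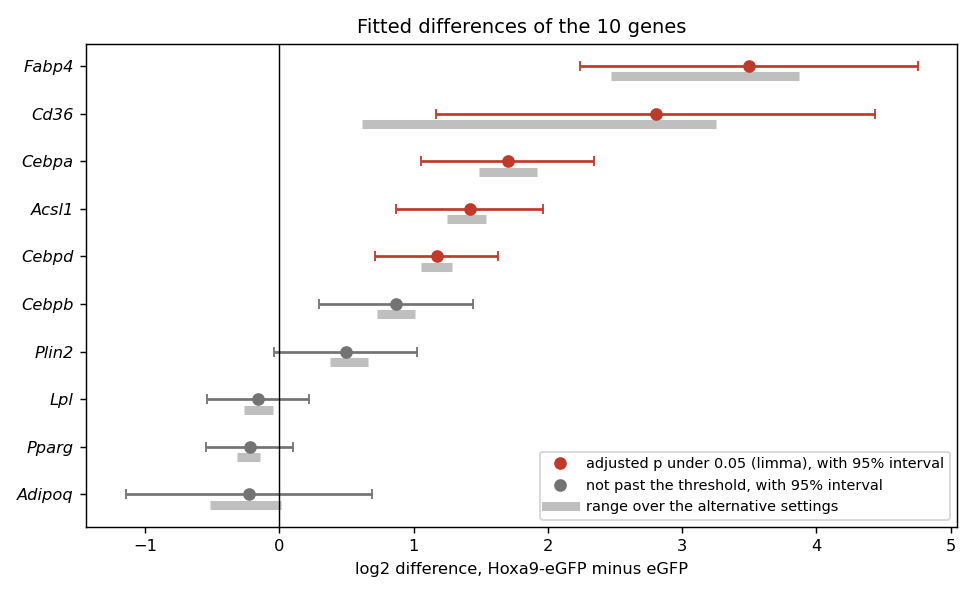
Fitted log2 difference (Hoxa9-eGFP minus eGFP) of the 10 genes with its 95% interval, red where the adjusted p was under 0.05 (limma), and a grey bar for the range over the alternative settings. Fabp4, Cebpa, Acsl1 and Cebpd stay well above 0 under every setting, Cd36 comes down to 0.61, and only Adipoq's bar crosses 0.

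The same-numbered pairs and the slides show how even each difference was. Fabp4, Cebpa, Cebpb, Cebpd, Acsl1 and Cd36 were higher in 4 of 4 pairs and on 3 of 3 slides. The groups of these genes do not overlap, so these counts were fixed and only the sizes say how even a rise was. Plin2 was higher in 3 of 4 pairs, Lpl and Adipoq in 2, and Pparg in 1. Acsl1 was the most even of the 4 rising genes measured in both groups on the pair scale, between 1.23 and 1.62. For Cd36 the sizes within pairs were not measured, since its eGFP signals were not well above background.

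**Figure D4:**
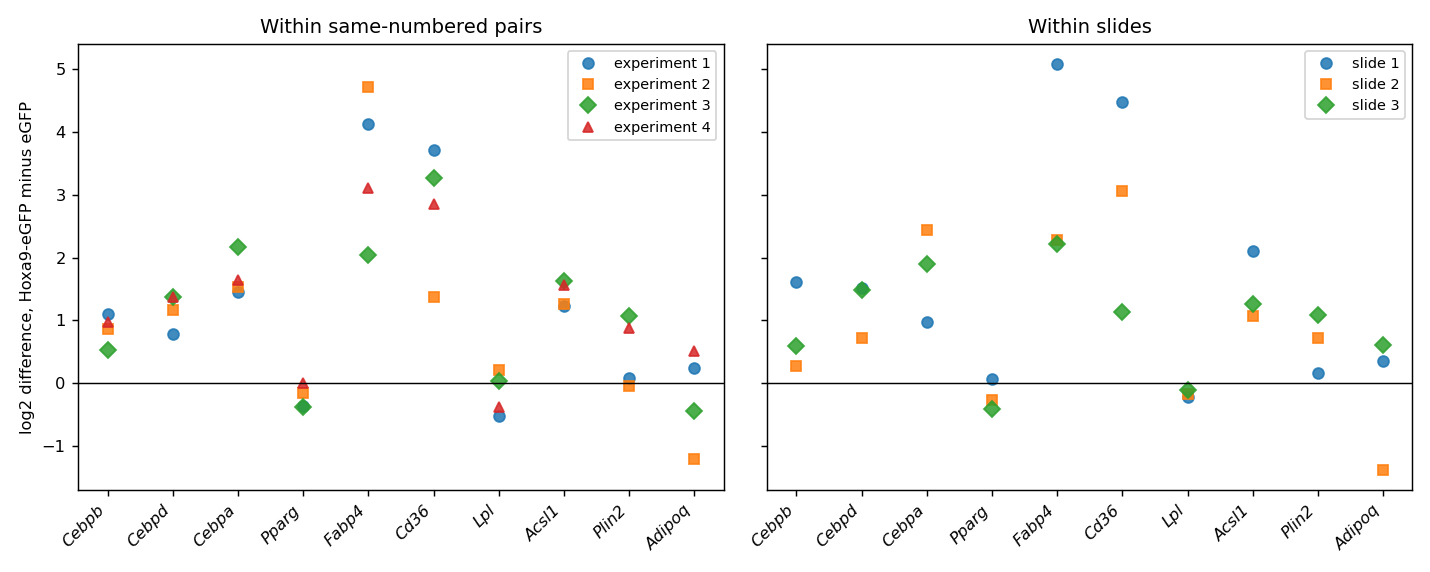
Log2 difference (Hoxa9-eGFP minus eGFP) of each gene within the 4 same-numbered experiments (left) and within the 3 slides (right). Over experiments Fabp4 lies between 2.05 and 4.71 and Acsl1 between 1.23 and 1.62, and within slides Cebpa is at 0.97, 2.43 and 1.90. The points of Cd36 use eGFP signals not well above background and show its direction, not a measured size.

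Promoter sequence was examined because C/EBPβ, C/EBPδ and C/EBPα bind DNA and Cebpa and Cebpd rose, as did Fabp4, Acsl1 and Cd36. RefSeq (GRCm38.p6) promoters were at hand for 7 of the 10 genes, with 10 start sites in all, and the 250 bases before each start were searched on both strands. Fabp4, Cebpd and Lpl had no promoter at hand and were not searched. The C/EBP-type motif TTNCNNAA occurred before starts of Pparg, Acsl1, Cd36 and Adipoq, in 4 of 10 promoters, beside 36.8% of all 32851 promoters. The stricter form TTGCNNAA occurred only before Pparg start 3, at -215 and -16 bases from the start, beside 9.56% of all promoters. The TATA box TATAAA was in 2 of 10 promoters, at -30 from the Cebpa start and at -29 from Pparg start 2, beside 12.4% of all promoters. Shown are the promoters of Cebpa, which rose, and of the genes with the motif other than Adipoq, with TTNCNNAA and TATAAA matches in capitals.
Cebpa promoter, chr7:35119043-35119292, plus strand: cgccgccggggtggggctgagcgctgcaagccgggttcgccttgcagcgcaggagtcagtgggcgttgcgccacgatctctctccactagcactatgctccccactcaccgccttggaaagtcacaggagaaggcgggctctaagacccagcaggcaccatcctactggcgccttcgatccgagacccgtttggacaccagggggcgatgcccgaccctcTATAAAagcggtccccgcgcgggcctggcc
Pparg promoter, start 3, chr6:115421816-115422065, plus strand: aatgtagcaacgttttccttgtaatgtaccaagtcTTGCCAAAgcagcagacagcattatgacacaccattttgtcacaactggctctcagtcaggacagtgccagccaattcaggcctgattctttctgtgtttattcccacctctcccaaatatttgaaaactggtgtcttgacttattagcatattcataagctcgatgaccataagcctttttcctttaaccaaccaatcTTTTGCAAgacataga
Acsl1 promoter, start 2, chr8:46490716-46490965, plus strand: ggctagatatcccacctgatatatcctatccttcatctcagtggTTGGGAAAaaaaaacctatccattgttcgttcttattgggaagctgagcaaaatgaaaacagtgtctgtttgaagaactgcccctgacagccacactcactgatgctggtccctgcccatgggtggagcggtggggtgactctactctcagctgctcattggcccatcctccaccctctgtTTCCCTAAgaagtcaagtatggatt
Cd36 promoter, chr5:17835897-17836146, minus strand: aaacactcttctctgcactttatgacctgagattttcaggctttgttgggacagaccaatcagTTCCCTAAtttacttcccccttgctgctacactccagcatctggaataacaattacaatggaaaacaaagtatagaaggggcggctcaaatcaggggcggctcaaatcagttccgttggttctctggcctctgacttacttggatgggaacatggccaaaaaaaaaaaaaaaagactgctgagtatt
The CCAAT box, CCAAT, was in 6 of 10 promoters, beside 33.8% of all. The core letters preferred by posterior Hox proteins, TTTAT, were in 4 of 10, beside 37.3%, and in the Cebpa promoter they lie inside the TATA box. Pparg and Adipoq hold the C/EBP-type motif and were not called, Acsl1 and Cd36 hold it and rose, and Cebpa rose without it. A match of letters is not a bound site, and its absence says nothing beyond these windows.

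The neighbouring genes of the fat cell and lipid programme were read from lists written for this tissue and treatment, with earlier results of these arrays known. Of 163 listed genes 151 were measured, of which 24 (15.9%) were higher and 12 (7.95%) lower in the Hoxa9-eGFP arrays, with a median difference of 0.18. The shares of all genes, 7.83% higher and 7.42% lower, and the median of all genes, -0.07, are the background for each list that follows. In the list of 38 adipogenic transcription regulators 5 rose and 3 fell, with a median of 0.01. Bhlhe40, a repressor of the circadian system, rose 8.39-fold (log2 difference 3.07, SE 0.15, adjusted p = 4.06e-05, limma). It read 1.73 to 2.15 in the Hoxa9-eGFP arrays and -1.32 to -0.92 in the eGFP arrays. Klf15, which induces Pparg in fat cell precursors, rose by 2.36 (adjusted p = 0.00233), though only 1 of 4 eGFP arrays was well above background, and by 0.64 after normexp background correction (adjusted p = 0.0211), so its size is uncertain. The oxysterol receptor gene Nr1h3 rose by 1.44 (adjusted p = 0.000319) and the signal transducer gene Stat5a by 0.89 (adjusted p = 0.00516). The glucocorticoid receptor gene Nr3c1 rose by 0.64 (adjusted p = 0.0421). Gata2 and Klf2, both known as inhibitors of fat cell formation, fell by 1.55 (adjusted p = 0.00115) and by 0.99 (adjusted p = 0.00978). Dlk1, whose product Pref-1 marks and restrains fat cell precursors, fell by 0.50 (adjusted p = 0.0472). The calls of the last-named receptor and of Dlk1 were fragile. Nr3c1 was lost when any array but Hoxa9-eGFP 3 was left out (adjusted p = 0.0701 to 0.104), and Dlk1 when any array was left out (adjusted p = 0.0523 to 0.126) and with the experiment block (adjusted p = 0.0764). With the slide as a block they had adjusted p = 0.0837 and 0.0931, and after a median shift in place of the 75th percentile 0.134 and 0.104. Dlk1 stood at -0.28 after normexp correction and at -0.82 when its probes were averaged, without a call (adjusted p = 0.196 and 0.17).

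Products typical of mature fat cells did not move as a group. Of 25 listed, 18 were measured, 3 rose and 2 fell, with a median of -0.01. Cidea, a lipid droplet protein of brown and beige fat, rose 4.83-fold (log2 difference 2.27, SE 0.42, adjusted p = 0.00819, limma), or by 1.42 after normexp correction. Apoe, a lipid carrier, rose by 0.77 (adjusted p = 0.0306), and Gpd1, glycerol-3-phosphate dehydrogenase, by 1.01 (adjusted p = 0.031). The imprinted gene Mest, linked to fat cell size, fell by 1.95 (adjusted p = 0.000442) and the retinol carrier gene Rbp4 fell by 1.85 (adjusted p = 0.000549). The Apoe call was lost without any of Hoxa9-eGFP arrays 1 to 3 or eGFP arrays 1, 3 and 4 (adjusted p = 0.0577 to 0.0867), with the slide as a block (adjusted p = 0.094) and after a median shift (adjusted p = 0.118). The Gpd1 call was lost without Hoxa9-eGFP array 3 or 4 or any eGFP array (adjusted p = 0.0549 to 0.0864).

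Genes of fatty acid uptake and activation were split. Of 24 measured, 4 rose and 3 fell, with a median of 0.13. Cav1, the caveolae protein, rose 4.88-fold (log2 difference 2.29, SE 0.20, adjusted p = 0.000261, limma). It read 1.11 to 1.83 in the Hoxa9-eGFP arrays and -1.15 to -0.59 in the eGFP arrays. The acetyl-CoA synthetase gene Acss2 rose by 1.64, the lipoprotein receptor gene Vldlr by 1.45, and Acsl6, a relative of Acsl1, by 1.40 (adjusted p = 0.0034, 0.00519 and 0.000934). When its probes were averaged Acss2 rose by 0.84 (adjusted p = 0.0478). The fatty acid transport protein gene Slc27a3 fell by 1.87 (adjusted p = 0.000559), and Dbi, the acyl-CoA binding protein, fell by 0.58 (adjusted p = 0.024). Dbi was not called with the experiment block (adjusted p = 0.0542) or without any of Hoxa9-eGFP arrays 1 and 3 or eGFP arrays 1, 2 and 4 (adjusted p = 0.0554 to 0.0757), with the slide as a block (adjusted p = 0.0658) and after a quantile scaling or a median shift (adjusted p = 0.103 and 0.0589).

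In the lipid droplet and lipolysis list 5 of 21 measured genes rose and 1 fell, with a median of 0.37. Pnpla2, the main triglyceride lipase, rose 2.30-fold (log2 difference 1.20, SE 0.18, adjusted p = 0.00321, limma), and G0s2, its inhibitor, fell by 1.36 (SE 0.20, adjusted p = 0.003). Of the relatives of Plin2, Plin4 rose by 1.31 (adjusted p = 0.00534), or by 0.87 after normexp correction, and Plin3 by 0.76 (adjusted p = 0.0087), while Plin5 stood at 0.59 without a call. Lipa, the lysosomal acid lipase, rose by 0.55 (adjusted p = 0.0188), a call lost without Hoxa9-eGFP array 1 or 3 or eGFP array 3 (adjusted p = 0.0515 to 0.0587), with the slide as a block (adjusted p = 0.0586) and after a median shift (adjusted p = 0.0837). Cidea, described above, is the fifth rising gene.

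Triglyceride synthesis genes moved both ways, with 3 higher and 3 lower of 17 and a median of -0.12. The phosphatidate phosphatase gene Lpin1 rose by 1.02 (adjusted p = 0.00282, limma) and the acyltransferase gene Gpam by 0.87 (adjusted p = 0.0131), beside Gpd1 above. Mogat2 fell by 1.28 (adjusted p = 0.00126), Gpat3 by 0.84 (adjusted p = 0.0167) and Dgat2, the last step of triglyceride formation, by 0.64 (adjusted p = 0.0261). These 3 are acyltransferases. The Gpat3 call was lost without eGFP array 2 (adjusted p = 0.0572), and the Dgat2 call with the experiment block (adjusted p = 0.0534) and without Hoxa9-eGFP array 1 or 4 or eGFP array 1 or 2 (adjusted p = 0.064 to 0.0845), as well as with the slide as a block (adjusted p = 0.0854) and after a median shift (adjusted p = 0.101).

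Of 31 measured genes of fatty acid oxidation, 5 rose and 0 fell. A difference above 0 was found in 25 of them, beside 44.3% of all genes, and the median was 0.42, beside -0.07 over all genes. Pdk4, which restrains glucose oxidation when fatty acids are burnt, rose 5.43-fold (log2 difference 2.44, SE 0.20, adjusted p = 0.000179, limma). It read 3.87, 3.88, 4.17 and 4.65 in the Hoxa9-eGFP arrays, against 1.88, 1.64, 1.70 and 1.59 in the eGFP arrays. The thioesterase gene Acot2 rose by 1.37 (adjusted p = 0.00515) and the carnitine carrier gene Slc25a20 by 1.16 (adjusted p = 0.015, or 0.0592 with the experiment block). Acadm, the medium-chain dehydrogenase, rose by 0.59 (adjusted p = 0.0391). The Acadm call was lost without any of Hoxa9-eGFP arrays 1 to 3 or eGFP arrays 2 to 4 (adjusted p = 0.0616 to 0.107), with the slide as a block (adjusted p = 0.112) and after a median shift (adjusted p = 0.185).

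Published target genes of PPAR receptors, as a list, had 8 of 26 measured members higher and 1 lower, with a median of 0.59. Among others, the list shares Pdk4, Plin4, Lpin1, Nr1h3, Gpd1, Acadm and Dgat2 with the lists above. Txnip, which limits glucose uptake, is in this list alone and rose 5.51-fold (log2 difference 2.46, SE 0.17, adjusted p = 9.28e-05, limma), at 2.03 to 2.15 in the Hoxa9-eGFP arrays and -0.69 to -0.14 in the eGFP arrays. With its probes averaged the difference was 1.54. Pparg itself and its relatives Ppara and Ppard were not called. Many of these targets respond to any of the PPAR receptors and to other signals.

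**Figure D5:**
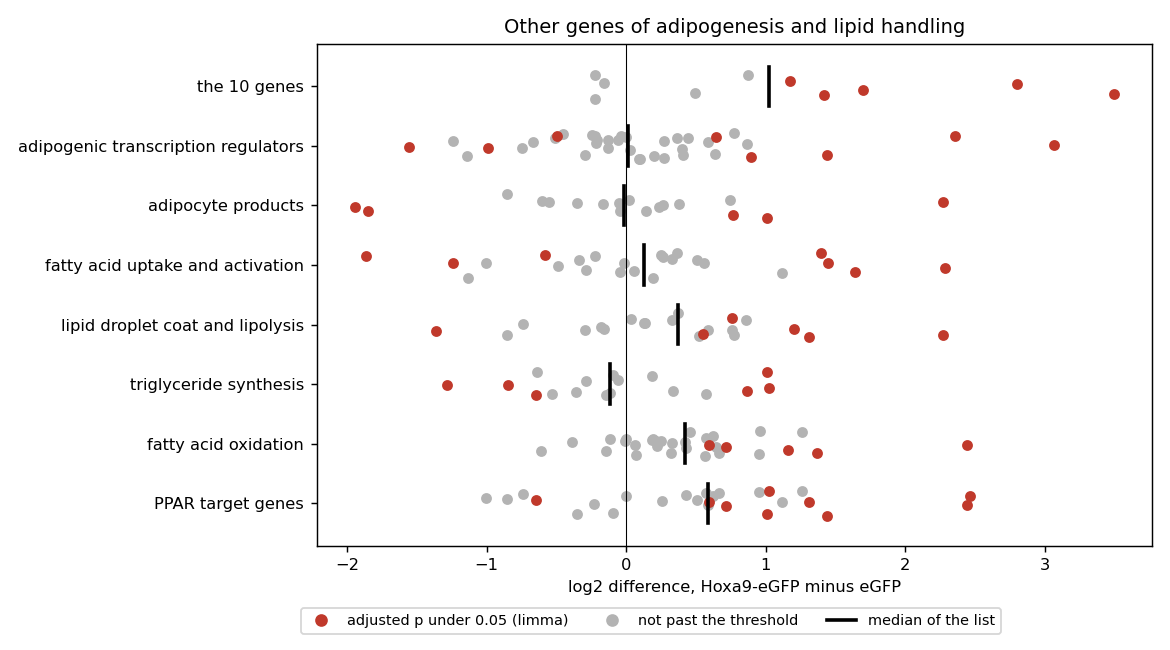
Log2 difference (Hoxa9-eGFP minus eGFP) of every measured gene in the 10 and in each list, red where the adjusted p was under 0.05 (limma), with a line at each list's median. Genes in several lists appear in each. The medians run between -0.12 for triglyceride synthesis and 0.59 for PPAR target genes, beside 1.02 for the 10 genes, which were chosen with earlier results of these arrays known.

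Markers of other cell types were read beside these results, as summed linear levels relative to the 75th percentile. Such sums weigh the brightest probes most. Of 12 defining markers of mature fat cells, 8 were measured, 0 were higher and 0 lower, and their sum was 0.887 to 1.92 in the Hoxa9-eGFP arrays and 0.989 to 1.74 in the eGFP arrays. Trarg1 was not well above background on any array.

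Fibro-adipogenic progenitor markers summed to 50.02 to 58.8 in the Hoxa9-eGFP arrays and 28.2 to 40.5 in the eGFP arrays. Of 10 measured, 1 rose, Ly6a by 4.55 (adjusted p = 0.000563, limma), and 1 fell, Osr1 by 1.81 (adjusted p = 0.00195, or by 0.93 after normexp correction), with a median of 0.18. Without Ly6a the sums were 41.5 to 45.1 in the Hoxa9-eGFP arrays and 27.9 to 39.8 in the eGFP arrays. Most of these sums came from Gsn (mean 4.79 with Hoxa9-eGFP, 4.46 with eGFP) and Cd34 (3.53 and 3.11), neither of them called. They thus do not show a rise of the list as a whole. Pdgfra, their defining receptor, stood at -0.63 without a call, and Dpt was not well above background on any array. The mean log2 level of the 10 was -1.69, -1.41, -0.55 and -0.69 in the Hoxa9-eGFP arrays and -1.53, -1.66, -0.61 and -0.95 in the eGFP arrays. In both groups arrays 3 and 4 were thus higher than 1 and 2. Among the 10 genes of the fat cell programme, Cebpb, Cebpd and Acsl1 split so in both groups. Fabp4 did so only in the eGFP arrays, and Cd36 and Adipoq only in the Hoxa9-eGFP arrays. Cebpa split the opposite way in both groups and Plin2 in the eGFP arrays, while Pparg and Lpl did not split in either. The mature fat cell markers split as the fibro-adipogenic markers did, at -3.62, -3.58, -3.15 and -2.84 in the Hoxa9-eGFP arrays and -3.72, -3.49, -2.83 and -3.17 in the eGFP arrays. So did the smooth muscle and pericyte markers, at -0.26, -0.13, 0.83 and 0.47 in the Hoxa9-eGFP arrays and -0.27, -0.47, 0.49 and 0.53 in the eGFP arrays. Endothelial markers split alike by less, at -2.42, -2.25, -2.12 and -1.97 in the Hoxa9-eGFP arrays and -2.39, -2.23, -2.10 and -2.07 in the eGFP arrays. The macrophage markers and the satellite cell and myoblast markers did not split so in both groups. The part of any of these cells in the results was not tested.

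Endothelial markers summed to 16.3 to 22.3 in the Hoxa9-eGFP arrays and 14.8 to 20.6 in the eGFP arrays. Of 10 measured, 2 were higher, Esam by 1.57 (adjusted p = 0.00115, limma), well above background on 2 of 4 eGFP arrays and at 0.45 after normexp correction, and Vwf by 0.65 (adjusted p = 0.0342), and 1 was lower, Egfl7, which fell by 0.53 (adjusted p = 0.0265). Vwf and Egfl7 were not called with the experiment block (adjusted p = 0.0546 and 0.0571). Both calls were lost without Hoxa9-eGFP array 3 or 4 or eGFP array 1, 2 or 3, Vwf also without Hoxa9-eGFP 2 and Egfl7 also without eGFP 4 (adjusted p = 0.0627 to 0.0986 for Vwf and 0.0516 to 0.0778 for Egfl7). After a median shift they had adjusted p = 0.0744 and 0.103. Vwf stood at 0.31 with its probes averaged (adjusted p = 0.342), and Egfl7 was not called with the slide as a block (adjusted p = 0.0568). Tie1 was not well above background on any array, and Pecam1 stood at -0.56 and Cdh5 at -2.06 without a call. Cdh5 was well above background on 1 of 4 Hoxa9-eGFP arrays and 3 of 4 eGFP arrays. Kdr and Gpihbp1 stood at 0.21 and 0.36, also without a call. Kdr, at means of 3.71 (Hoxa9-eGFP) and 3.50 (eGFP), made up most of the endothelial sums. The median of the 10 endothelial markers was 0.02, with 5 of them above 0. Macrophage markers summed to 33.9 to 49.1 in the Hoxa9-eGFP arrays and 33.8 to 52.4 in the eGFP arrays, with 0 of 10 called. Itgam, at means of 5.02 (Hoxa9-eGFP) and 5.04 (eGFP), made up most of these sums. The mean log2 level of the 10 was -1.94 to -1.44 in the Hoxa9-eGFP arrays and -1.85 to -1.54 in the eGFP arrays. Smooth muscle and pericyte markers summed to 70.2 to 116 in the Hoxa9-eGFP arrays and 115 to 176 in the eGFP arrays. Acta2, at means of 5.19 (Hoxa9-eGFP) and 6.52 (eGFP), made up much of these sums. Of 9 measured, 1 was higher and 1 lower, with a median of -0.005, so the sums do not show a fall of the list as a whole. There Cnn1 rose by 2.57 (adjusted p = 0.00404), and Acta2 fell by 1.32 (adjusted p = 0.0236), a call lost without Hoxa9-eGFP array 1 or eGFP array 1, 3 or 4 (adjusted p = 0.0568 to 0.0673) and after a quantile scaling (adjusted p = 0.0579).

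The satellite cell and myoblast markers summed to 333 to 378 in the Hoxa9-eGFP arrays and 520 to 615 in the eGFP arrays, with a median of -0.76. Vcam1 fell by 2.59 (adjusted p = 0.00011, limma) and Pax7, the defining factor of satellite cells, by 1.30 (adjusted p = 0.00401). Myf5, Met, Itga7, Cdh15 and Chrna1 were the other 5 that fell, by 1.62, 0.96, 0.76, 0.67 and 0.58, and each of these 5 calls was lost in at least 1 fit that left out an array (highest adjusted p 0.0682, 0.105, 0.0512, 0.114 and 0.0845). For Itga7 that array was Hoxa9-eGFP 3, and Cdh15 was lost without any array. Met was lost without any array but eGFP 1, Myf5 without Hoxa9-eGFP 3 or 4 or eGFP 1, 3 or 4, and Chrna1 without Hoxa9-eGFP 1, 3 or 4 or eGFP 1, 2 or 4. With the experiment block Myf5 and Chrna1 had adjusted p = 0.0529 and 0.058. With the slide as a block Itga7, Cdh15 and Chrna1 had adjusted p = 0.0574, 0.128 and 0.0918, and after a median shift Cdh15 and Chrna1 had 0.138 and 0.0928. Myf5 fell by 0.72 after normexp correction. Myod1, the factor that commits cells to muscle, stood at -0.23 (adjusted p = 0.479).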

How the data were processed

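The 12 probes of the 10 genes were read from 8 single-colour Agilent mouse arrays. The values are intensity readings of the deposited scanner files, made by the authors with Agilent Feature Extraction 10.7.3.1 (file headers, submitters' processing notes), with background subtracted per the file headers and arrays left unscaled. A deposited table of log2 values, entered as a score because 86.1% to 87.3% of its cells lack the decimal point, served only as an alternative. Once the point was restored behind the leading digit, the column medians were -3.24, -3.26, -3.22 and -2.95 (Hoxa9-eGFP 1 to 4) and -3.36, -3.23, -3.11 and -3.08 (eGFP 1 to 4). Per array, 99.998% or more of the probes matched log2 of the scanner signal to 0.05 after a constant shift, so those values are log2 signals shifted by array, not centred by gene.

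Control and outlier spots were left out, then 180 probes without a value on some array, repeated spots averaged, log2 signals shifted to each array's 75th percentile (514 to 779 signal units), and probes kept (40771) if 4 or more of the 8 arrays had them well above background. Each gene was represented by its probe of highest mean. Names were updated by accession from RefSeq (27656 probes matched, 1711 renamed). The fit used limma 3.58.1 (R 4.3.3), with group as the only term, after a test on simulated data. Slide 1 held Hoxa9-eGFP 4 and eGFP 1 and 2, slide 2 Hoxa9-eGFP 1 and 2 and eGFP 3, and slide 3 Hoxa9-eGFP 3 and eGFP 4. The arrays that share a number deviated together from their group means (r = 0.143, 0.228, 0.129 and 0.186 for numbers 1 to 4), so the experiment numbers in the titles were taken to pair the arrays. The main fit, which sets the calls, left this pairing out, and the experiment block adds it as an alternative. Of the 12 unlike pairs, 2 also exceeded 0.1 (0.188 for Hoxa9-eGFP 3 with eGFP 4, on a shared slide, and 0.137 for Hoxa9-eGFP 4 with eGFP 3). Alternatives were quantile and median scaling, normexp with an offset of 50, other filters on dim probes, the deposited table, other ways of joining probes, slide and experiment blocks, a trended robust prior, weights by array, leaving out each array and a minimum of 2-fold. The genes, lists and settings were chosen with earlier results of these data known. Named genes are the 10, the checks Hoxa9, Pax7 and Myod1, the 3 of lowest adjusted p in each pathway list and all called where 5 or fewer, called markers, and the 3 genes most correlated with Fabp4. Of the genes this rule takes, 2 are not reported here, though the totals of their lists include them. Others named without a call were chosen after their values were seen.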

Additional observations from a re-analysis of the deposited data

Results flagged for a closer look

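In 5 of 130 groups of 4 arrays, 1 for each named gene and condition, the highest or lowest array stood further from the rest than Dixon's limit at 95% allows, and chance gives about 1 such group in 20. Cd36 read -2.61 on Hoxa9-eGFP array 4, above the other Hoxa9-eGFP arrays at -4.59 to -4.34. Plin3 read 3.95 on eGFP array 2, below the other eGFP arrays at 4.14 to 4.16. Lipa read 0.53 on Hoxa9-eGFP array 2, with the others at 0.67 to 0.70. Lpin1 read -1.56 on eGFP array 2, with the others at -1.85 to -1.83. Cnn1 read 1.17 on Hoxa9-eGFP array 3, with the others at -0.63 to -0.54. Without these arrays Cd36 was no longer called (log2 difference 2.34, adjusted p = 0.0716, limma), and the other 4 genes stayed called.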

How the results depend on the processing

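Fabp4, Cebpa, Cebpd and Acsl1 kept their direction and their call in all 20 alternatives run for each. Of 198 member values under an alternative, 182 kept direction and side of the threshold. Cd36 lost its call in 7 of 19 alternatives, Cebpb gained one in 8 of 20, and Adipoq, at -0.52 to 0.013 when each array was left out, turned to 0.013 without eGFP replicate 3. Adipoq and Cd36 have no value with the filter that asks for all 8 arrays. The count of the 10 genes that rose ran between 4 and 6, leaving out each array included, and was 1 under a 2-fold minimum, a stricter test by construction. The same minimum left 389 higher and 177 lower genes in all, and 4 higher and 3 lower pathway genes. With normexp background correction 37 pathway genes were higher, and the cause was not tested. Leaving out each array in turn gave 1580 to 1906 higher and 1293 to 1889 lower genes in all, the lowest of both without eGFP replicate 2. Pathway genes were then 19 to 23 higher and 8 to 12 lower. With the replicate block, which pairs the arrays by experiment, 2303 genes were higher and 2135 lower, 6 of the 10 genes rose, and 33 pathway genes were higher and 13 lower. It changed the calls only of the genes for which its p is printed above, among those named. Signal over background limits Cd36, Adipoq, Klf15, Esam, A230009B12Rik and Cdh5, each not well above background on at least 2 arrays. The alternatives for the pathway lists and the sum without Ly6a were added after seeing the data.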
